A study of Mus musculus with 20 samples.

Results

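Frontal cortex RNA was compared between mice with both, with 1 or with no copies of a Tardbp allele that carries the protein change Q331K, and the 8 genes described here are Tardbp itself and 7 other genes of RNA-binding proteins linked to amyotrophic lateral sclerosis (ALS), a fatal disease of motor neurons. The 8 were Tardbp, Hnrnpa1, Hnrnpa2b1, Taf15, Ewsr1, Matr3, Tia1 and Atxn2, chosen by name as rows of a table of 25965 genes. All 8 were present once, and all 8 were among the 16690 genes that passed the filter on low counts and were tested. There were 8 homozygous libraries (Q331K/Q331K), 6 heterozygous libraries (Q331K/+) and 6 wild-type libraries (+/+). All mice had the C57BL/6 background and were 5 months old, and the variant was a knock-in, so that it sat in the mouse's own Tardbp gene. Libraries were made from polyadenylated RNA with a kit that keeps the strand. Sex, litter and pooling are not in the labels, which name the libraries only as distinct samples of a genotype, so a p-value here speaks to the variation among the samples alone.

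TDP-43, the product of Tardbp, is a mainly nuclear protein that binds GU-rich stretches of RNA, acts in splicing and RNA stability, and is found in cytoplasmic deposits in most people with ALS. It limits its own amount: at high levels it binds the 3′ untranslated region of its own mRNA and lowers the level of that mRNA. Hnrnpa1 and Hnrnpa2b1 code for abundant nuclear ribonucleoproteins of the hnRNP A/B family, Taf15 and Ewsr1 for members of the FET family, Matr3 for a nuclear matrix protein, Tia1 for a stress granule protein and Atxn2 for a cytoplasmic protein that acts with poly(A)-binding protein. Like TDP-43, several of these proteins carry a long, disordered stretch of low sequence complexity in which the ALS variants lie, and the Q331K change lies in that stretch of TDP-43.

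Sequencing was deep. Library totals ran from 61282647 to 111440766 counts, and the lowest count of any of the 8 genes in any library was 3457, for Taf15 in a heterozygote. Mitochondrial transcripts took 6.26% to 11.5% of counts. Markers of excitatory neurons, interneurons, astrocytes, oligodendrocytes, microglia and endothelium were present in each library. In contrast, 10 markers of ependymal cells, which line the ventricles and are not part of the cortex, summed to 8.50 to 26.3 CPM in homozygotes, 8.54 to 17.7 CPM in heterozygotes and 7.87 to 9.14 CPM in wild type. CPM values correct for library size, adjusted with TMM factors. Heterozygous replicate 1 had 514.04 CPM over 7 striatal markers, and the range was 200.001 to 269.8 CPM in homozygotes and 193.5 to 258.7 CPM in wild type.

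All 8 genes were well expressed in each genotype. Per kilobase of merged exons of coding transcripts, which allows levels to be compared between genes, mean levels over the 20 libraries were 175.7 CPM per kb for Hnrnpa2b1, 114.2 for Hnrnpa1, 77.6 for Ewsr1 and 51.9 for Matr3. Tardbp stood at 30.0 CPM per kb, Atxn2 at 28.8, Taf15 at 27.8 and Tia1 at 24.4. The 8 genes lay between the percentiles 83.6 and 98.7 of the 15252 tested genes that had a length. In homozygotes Tardbp had 31.6 ± 1.35 CPM per kb, Atxn2 28.8 ± 2.20, Taf15 27.6 ± 1.12 and Tia1 24.4 ± 1.58 (SD, n = 8 each). In wild type, Atxn2 at 28.7 ± 1.24, Taf15 at 28.2 ± 1.35 and Tardbp at 28.1 ± 0.712 CPM per kb (SD, n = 6 each) did not differ beyond their spread. The exon lengths come from the annotation and do not weigh which transcript was used, so orders between genes this close are approximate.

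**Figure D1:**
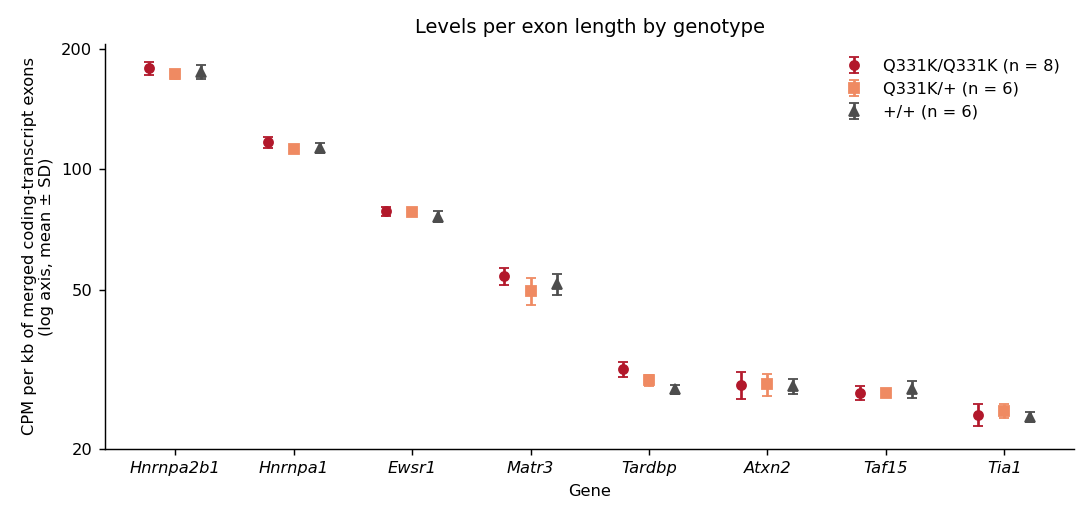
Mean level ± SD of each gene in CPM per kb of merged exons (log axis), by genotype: Q331K/Q331K (n = 8), Q331K/+ (n = 6) and +/+ (n = 6). Hnrnpa2b1 was highest of the 8 at 175.7 CPM per kb over all libraries and Tia1 lowest at 24.4, and the genotypes of each gene lay close together on this scale.

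The first comparison asked which of the genes differed when both copies of Tardbp carried Q331K, and 1 of the 8 did. Tardbp rose in homozygotes. It had 233.8 CPM in the lowest, 243.1 CPM in the median and 263.6 CPM in the highest of 8 homozygous libraries, against 210 CPM, 218.3 CPM and 226.6 CPM in the lowest, median and highest of 6 wild-type libraries. All 8 homozygous libraries lay above the highest wild-type library, so the groups did not overlap. The mean was 245 ± 10.5 CPM in homozygotes (SD, n = 8) and 218 ± 5.53 CPM in wild type (SD, n = 6). The log2 difference of homozygotes from wild type was 0.17 (SE 0.029), which is 12.5% more mRNA with a 95% interval of 7.83% to 17.3% (edgeR quasi-likelihood test, Benjamini-Hochberg adjusted p = 0.00372 over all genes). By p, Tardbp ranked 25 of 16690. A two-sided exact permutation test of log2 CPM gave p = 0.000333, which is the lowest value that 3003 splits allow. Counts over the whole table give the scale of this: 261 of 16690 genes were called in the comparison, 1.56%, and 107 of them, 0.641%, were higher in homozygotes. That total depends on single libraries: it was 147 when homozygous replicate 5 was dropped, and 115, 122, 139 and 148 when replicates 6, 5, 1 and 3 of wild type were dropped in turn. Tardbp was called in each of these fits. Groups that did not overlap, with homozygotes higher, occurred in 0.264% of genes. In bulk tissue, a different share of cells of a type and a different amount of RNA per cell cannot be told apart.

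Heterozygotes stood between the other genotypes for Tardbp. Their 6 libraries had 215.1 CPM at the lowest, 232.9 CPM at the median and 235.1 CPM at the highest, with a mean of 230 ± 7.58 CPM (SD, n = 6). Of these, 5 lay above the highest wild-type library, and the remaining one, replicate 4, lay within the wild-type range. Against wild type, heterozygotes had a log2 difference of 0.08 (SE 0.031), or 5.40% with an interval of 0.789% to 10.2%. Its unadjusted p was 0.0231, and it was not called (edgeR adjusted p = 0.9996), and the exact permutation p was 0.0195 over 924 splits. No gene of the table was called in that comparison by edgeR (0%), with 532 genes, 3.19%, at an unadjusted p under 0.05, while DESeq2 called 2 genes and limma voom 0. Groups without overlap, in either direction, occurred in 0.198% of genes.

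Homozygotes in turn exceeded heterozygotes in Tardbp by 0.09 on the log2 scale (SE 0.029), or 6.69% with an interval of 2.31% to 11.3%. Of the 8 homozygous libraries, 7 lay above the highest heterozygous one, so the ranges overlapped by 1 library. In this comparison groups without overlap, in either direction, occurred in 0.288% of genes. The adjusted p over all genes was 0.276 by edgeR, the unadjusted p was 0.0039, and the exact permutation p was 0.00466. Over the 3 pairs of genotypes, the adjusted exact permutation p were 0.000999 for homozygotes against wild type, 0.0195 for heterozygotes against wild type and 0.00699 for homozygotes against heterozygotes. Genes called in homozygotes against heterozygotes numbered 18, or 0.108% of the table, and no gene of the 8 was among them. With 1 library left out this count lay between 5 and 31: dropping a homozygous library gave 5 for replicates 1 and 8, 11 for replicate 6 and 31 for replicate 2. Dropping a heterozygous library gave 5 for replicate 2, 7 for replicate 6 and 10 for replicate 3, and dropping wild-type replicate 6 gave 29.

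With the number of Q331K alleles taken as a number, Tardbp rose by 0.09 on the log2 scale per allele (SE 0.014, interval 0.06 to 0.11), or 6.07% per allele (edgeR adjusted p = 0.00252 for the trend). It was the only 1 of the 8 called for the trend, in which 306 genes, 1.83% of all, were called. The trend call was lost, leaving 0 of the 8, with tissue scores as covariates and without libraries of an ependymal score over 0. Over all genes, leaving out replicate 5 or 6 of wild type gave 159 trend calls each, and leaving out replicate 5 of the homozygotes gave 189. The trend and the comparison of homozygotes with wild type use the same libraries and are not independent of each other. Heterozygotes lay 0.01 below the midpoint of the other genotypes on the log2 scale, with an interval of -0.06 to 0.05, and that departure did not pass the test (edgeR adjusted p = 0.9945). No gene of the table did (0%), with 573 genes, 3.43%, at an unadjusted p under 0.05 by edgeR. The interval bounds how far heterozygotes can lie from the middle and does not show that they lie exactly there.

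**Figure D2:**
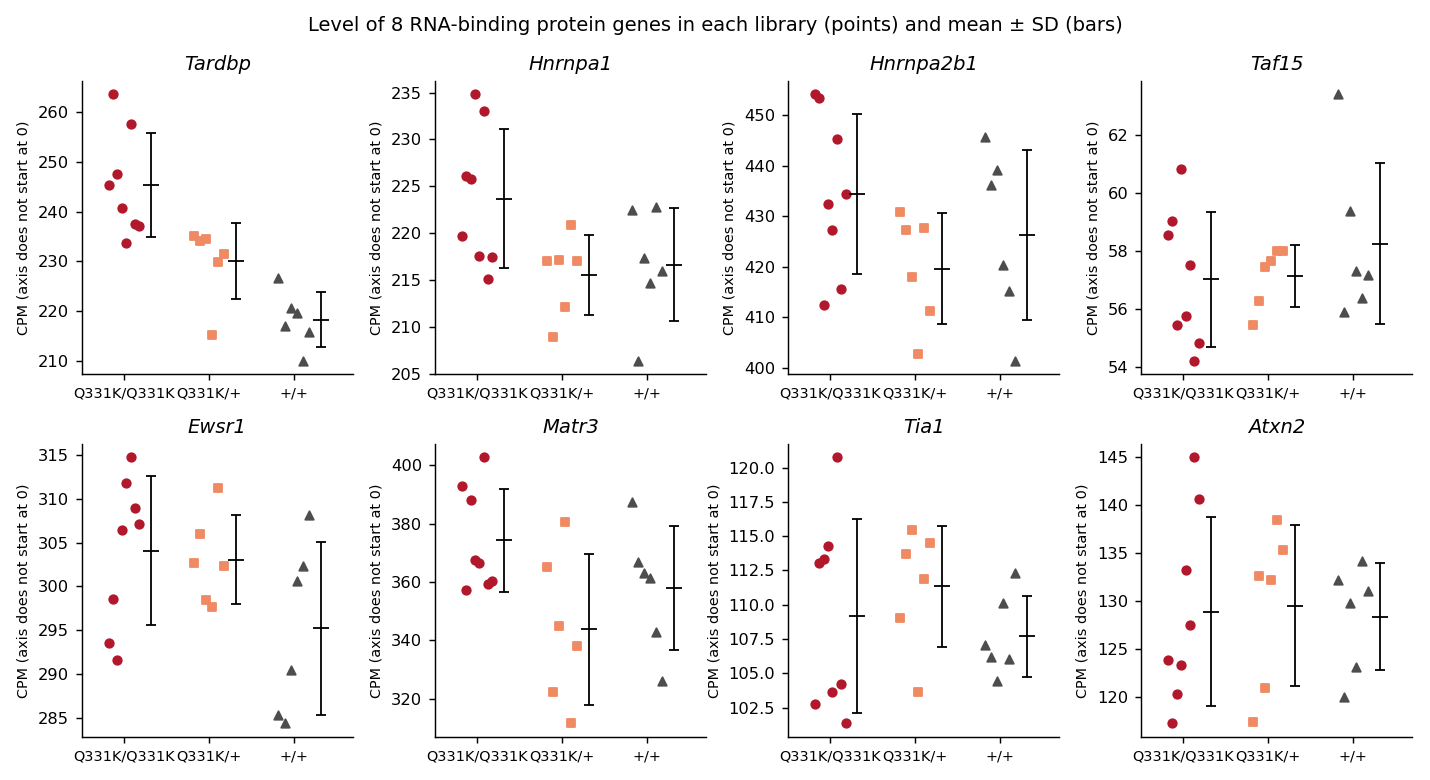
Level of each of the 8 genes in each library in CPM (points; axes do not start at 0) with mean ± SD (bars), for Q331K/Q331K (n = 8), Q331K/+ (n = 6) and +/+ (n = 6). For Tardbp all homozygous libraries lie above all wild-type ones and 5 of 6 heterozygous libraries lie above the highest wild-type library, while the genotypes of the other genes overlap.

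Some counts of Tardbp could belong to other genes. The gene (ENSMUSG00000041459) lies at bases 148612382 to 148627019 of chromosome 4 on the minus strand. Its last 3118 bases overlap Masp2, a gene of the complement system on the opposite strand, and the strand setting of the counting is not given in the sources used here. The row of Masp2 held a mean of 44.0 counts per library, against at least 14657 counts of Tardbp in each library. Of the windows of 50 bases in Tardbp transcripts, 20.98% also occur in Masp2 transcripts and 1.10% in the pseudogene Gm13886. Here and for the other genes, matches on either strand were counted, so those with Masp2 can be the overlap of opposite strands itself. GENCODE M21 lists 30 transcripts of Tardbp, 10 of them annotated as targets of nonsense-mediated decay, and a count per gene does not tell these forms apart.

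Mean marker scores of other tissue and cell types differed between genotypes as well, and these score differences were not tested. The ependymal and meningeal scores were, like Tardbp, highest in homozygotes and lowest in wild type, while the olfactory bulb score was highest in homozygotes and lowest in heterozygotes. Each score is the mean z score of log2 CPM over the markers that passed the filter on low counts. For the ependymal score these were the 10 markers except Sntn. It was 0.53 ± 0.92 in homozygotes (SD, n = 8), -0.08 ± 0.74 in heterozygotes and -0.62 ± 0.23 in wild type (SD, n = 6 each). The meningeal score over 7 markers was 0.56 ± 0.71 in homozygotes, -0.26 ± 0.55 in heterozygotes and -0.48 ± 1.01 in wild type, and these markers summed to 55.5 to 84.8 CPM in homozygotes, 48.5 to 65.2 CPM in heterozygotes and 39.8 to 67.6 CPM in wild type. The olfactory bulb score over 7 markers was 0.55 ± 1.18 in homozygotes, -0.56 ± 0.31 in heterozygotes and -0.16 ± 0.59 in wild type, with sums of 35.6 to 118.7 CPM in homozygotes, 32.3 to 40.2 CPM in heterozygotes and 33.8 to 49.7 CPM in wild type. All of these markers were present in the table, and the ependymal markers Tmem212 and Sntn and the olfactory bulb marker Eomes were at 0 in at least 1 library. In homozygotes against wild type, only the ependymal markers Rsph1, at 0.39 (edgeR adjusted p = 0.0416), and Dnahc11, at 2.02 (edgeR adjusted p = 0.0432), were called among them. Dnahc11 was low, with a median of 0.43 CPM over the libraries.

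The group means of other scores were ordered by allele number too, though their ranges overlapped between genotypes and the order was not tested. The interneuron score over 7 markers ran opposite to Tardbp, at -0.31 ± 0.49 in homozygotes (SD, n = 8), 0.04 ± 0.21 in heterozygotes and 0.38 ± 0.29 in wild type (SD, n = 6 each), with sums of 793.4 to 872.8 CPM in homozygotes, 829.5 to 871.4 CPM in heterozygotes and 840.003 to 880.3 CPM in wild type. Of these 7, only Pvalb, which marks fast-spiking interneurons, was called in homozygotes against wild type, at -0.32 (edgeR adjusted p = 0.00161). The others were split in direction and not called. Gad2 at 0.07 and Sst at 0.08 were higher in homozygotes. Lhx6 at -0.18, Vip at -0.11, Gad1 at -0.10 and Slc32a1 at -0.09 were lower. The choroid plexus score was taken over its 6 markers except Otx2, which did not pass the filter on low counts. Its means were 0.35 ± 0.77 in homozygotes, -0.05 ± 0.36 in heterozygotes and -0.42 ± 0.63 in wild type. All 6 markers summed to 3.54 to 10.7 CPM in homozygotes, 3.89 to 8.01 CPM in heterozygotes and 2.84 to 6.53 CPM in wild type. Otx2 was at 0 in at least 1 library. The endothelial score over 5 markers was 0.24 ± 0.58 in homozygotes, 0.01 ± 0.74 in heterozygotes and -0.32 ± 0.83 in wild type, with sums of 132.7 to 157.6 CPM in homozygotes, 135.8 to 165.3 CPM in heterozygotes and 118.5 to 150.6 CPM in wild type. The microglia score had the same order at 0.02 ± 0.78 in homozygotes, 0.01 ± 0.78 in heterozygotes and -0.04 ± 0.42 in wild type, means much closer together than their spread. The part of these 4 scores in the Tardbp difference was not tested.

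High Tardbp levels occurred in homozygous libraries both of high and of low ependymal score. The homozygous library with the highest Tardbp level, replicate 2 at 263.6 CPM, had an ependymal score of 1.28, and the next, replicate 6 at 257.6 CPM, had a score of -0.37. Without the 4 libraries whose ependymal score exceeded 0.5, of which 3 were homozygous and 1 heterozygous, Tardbp remained called in homozygotes against wild type at a log2 change of 0.15 (edgeR adjusted p = 0.0169). Without the 7 libraries whose score exceeded 0, which left 3 homozygous, 4 heterozygous and 6 wild-type libraries, the change was 0.16 (edgeR adjusted p = 0.0459). With the ependymal, olfactory bulb and meningeal scores as covariates, the change was 0.16 and the call was lost (edgeR adjusted p = 0.0527). The part of these tissues in the Tardbp difference, and in the smaller differences, was not tested otherwise.

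**Figure D3:**
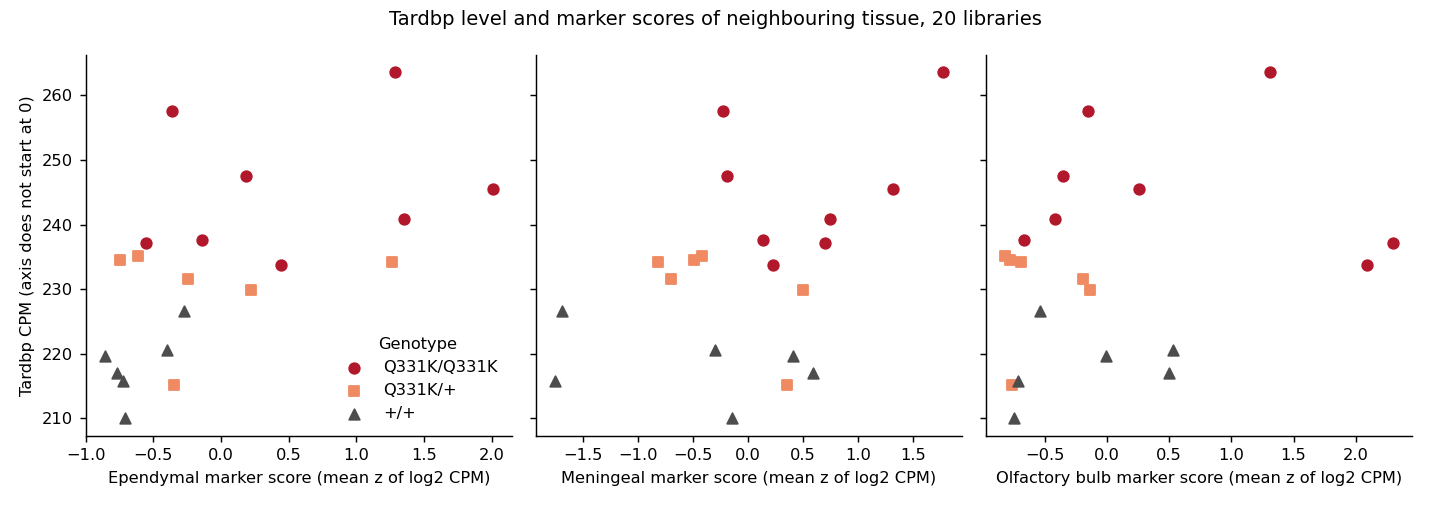
Tardbp level in CPM (axis does not start at 0) against the ependymal, meningeal and olfactory bulb marker scores (mean z of log2 CPM) in 20 libraries, with Q331K/Q331K as circles, Q331K/+ as squares and +/+ as triangles. At ependymal scores below 0 there are only 3 homozygous libraries. They lie above the wild-type ones, with the lowest homozygous level at 237.2 CPM and the highest wild-type level at 226.6 CPM. The lowest of these homozygous libraries, replicate 8, has an olfactory bulb score of 2.30 and a meningeal score of 0.70.

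No difference between genotypes was called for either hnRNP A/B gene. Hnrnpa1 lies at bases 103240432 to 103244955 of chromosome 15 on the plus strand and Hnrnpa2b1 at 51460434 to 51469894 of chromosome 6 on the minus strand (GRCm38). Hnrnpa1, which codes for a protein that binds pre-mRNA and takes part in splice site choice, had 215.2 to 234.8 CPM in homozygotes (median 222.8), 208.9 to 220.9 CPM in heterozygotes (median 217.03) and 206.4 to 222.8 CPM in wild type (median 216.7). The ranges overlapped, with 4 of 8 homozygous libraries above the highest wild-type one. Homozygotes differed from wild type by 0.05 on the log2 scale, or 3.27% with an interval of -0.470% to 7.15% (edgeR adjusted p = 0.391), and from heterozygotes by 0.05, at an unadjusted p of 0.0481 that did not pass adjustment (edgeR adjusted p = 0.447). Hnrnpa2b1, whose protein also sorts mRNAs and microRNAs for transport, had 412.4 to 454.2 CPM in homozygotes (median 433.5), 402.7 to 430.9 CPM in heterozygotes (median 422.6) and 401.4 to 445.6 CPM in wild type (median 428.3). The groups overlapped, and homozygotes differed from wild type by 0.03 on the log2 scale, or 1.89% with an interval of -2.43% to 6.41% (edgeR adjusted p = 0.712). That sign turned with the tissue scores as covariates, at -0.03, and with 3 surrogate variables, at -0.01.

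Hnrnpa1 had the largest share of sequence in common with other genes among the 8. How reads that match more than 1 gene were counted is not given in the sources used here. Of its windows of 50 bases, 46.7% also occur in other genes, 19 of them pseudogenes, and Gm7729, a pseudogene with a row of its own, had a mean of 81.5 counts per library. For Hnrnpa2b1 the share was 1.60%, in 1 pseudogene.

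Neither FET family gene was called in any comparison. Both lie on chromosome 11, Taf15 at bases 83473086 to 83506743 on the plus strand and Ewsr1 at 5069689 to 5099266 on the minus strand (GRCm38). Taf15, part of which associates with the general transcription factor TFIID, had 54.2 to 60.8 CPM in homozygotes (median 56.6), 55.5 to 58.03 CPM in heterozygotes (median 57.6) and 55.9 to 63.4 CPM in wild type (median 57.3). It was the only 1 of the 8 with a negative log2 difference of homozygotes from wild type, at -0.03, or -2.12% with an interval of -6.42% to 2.38% (edgeR adjusted p = 0.681), and 4 of 8 homozygous libraries lay below the lowest wild-type one. Ewsr1, whose protein also acts in transcription and splicing, had 291.6 to 314.8 CPM in homozygotes (median 306.8), 297.7 to 311.2 CPM in heterozygotes (median 302.5) and 284.3 to 308.2 CPM in wild type (median 295.5). Its ranges overlapped too, and homozygotes differed from wild type by 0.04, or 3.01% with an interval of -0.713% to 6.87% (edgeR adjusted p = 0.439). Ewsr1 overlaps Rhbdd3, on the opposite strand, by 341 bases. Of its 50-base windows, 23.7% also occur, on either strand, in Rhbdd3 or in 3 pseudogenes, whereas Taf15 shares none.

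With all libraries, Matr3 had the widest difference of the 8 between homozygotes and heterozygotes, and it did not pass adjustment. Its product, matrin 3, is encoded on chromosome 18 and is a nuclear matrix protein with zinc fingers and RNA recognition motifs that is known to bind TDP-43. Levels were 357.1 to 402.8 CPM in homozygotes (median 367.01), 311.5 to 380.4 CPM in heterozygotes (median 341.6) and 326 to 387.4 CPM in wild type (median 362.2). All 3 groups overlapped, and heterozygotes spread most, with a coefficient of variation of 7.51% against 4.70% in homozygotes and 5.91% in wild type. Homozygotes exceeded heterozygotes by 0.12 on the log2 scale, or 8.86% with an interval of 2.29% to 15.9%, at an unadjusted p of 0.0095 (edgeR adjusted p = 0.320). Homozygotes differed from wild type by 0.06 (edgeR adjusted p = 0.4998) and heterozygotes from wild type by -0.06 (edgeR adjusted p = 0.9996). Without the 7 libraries of an ependymal score over 0, homozygotes exceeded heterozygotes by 0.07 (edgeR adjusted p = 0.721) and heterozygotes differed from wild type by -0.002 (edgeR adjusted p = 0.9998), and Atxn2 then had the widest difference of homozygotes from heterozygotes, at 0.13 (edgeR adjusted p = 0.451). Over all libraries, Matr3 in heterozygotes lay below the midpoint by 6.07% with an interval of -11.2% to -0.608%, at an unadjusted p of 0.0313 (edgeR adjusted p = 0.9945). GENCODE M21 places the coding gene Gm28285 over Matr3 on the same strand, it shares 22.8% of the 50-base windows and it has no row in the table.

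The remaining pair, known for roles in stress granules and translation, were not called in any comparison either. Tia1 lies at bases 86404219 to 86433403 of chromosome 6 and Atxn2 at 121711337 to 121816493 of chromosome 5, both on the plus strand (GRCm38). Tia1, whose protein binds U-rich RNA and helps to form stress granules, had 101.3 to 120.8 CPM in homozygotes (median 108.6), 103.6 to 115.4 CPM in heterozygotes (median 112.8) and 104.4 to 112.3 CPM in wild type (median 106.6). Homozygotes reached both above and below wild type, with 4 of 8 libraries above the highest and 4 below the lowest wild-type library, and the log2 difference was 0.02, or 1.37% with an interval of -3.82% to 6.84% (edgeR adjusted p = 0.840). Atxn2, in which longer polyglutamine stretches are a risk factor for ALS in people, had 117.3 to 144.97 CPM in homozygotes (median 125.7), 117.4 to 138.5 CPM in heterozygotes (median 132.4) and 120.02 to 134.2 CPM in wild type (median 130.4). Its groups overlapped and homozygotes differed from wild type by 0.01, or 0.420% with an interval of -5.96% to 7.23% (edgeR adjusted p = 0.966). Tia1 shares 6.57% of its 50-base windows with the same-strand gene Gm44790, and Atxn2 shares none, although it overlaps Sh2b3 on the opposite strand by 1006 bases.

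**Figure D4:**
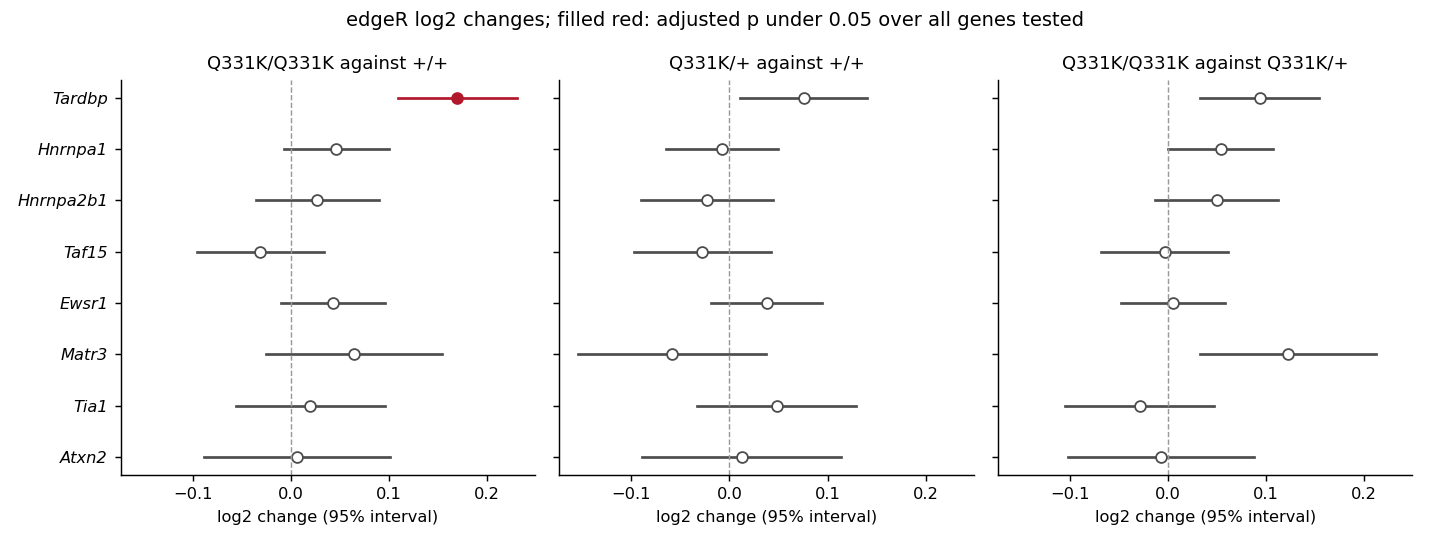
Log2 change of each gene with its 95% interval (edgeR) for Q331K/Q331K against +/+, Q331K/+ against +/+ and Q331K/Q331K against Q331K/+, with adjusted p under 0.05 filled in red. Only Tardbp in Q331K/Q331K against +/+, at 0.17, is called. Without a call, the interval also lies above 0 for Tardbp in both other comparisons, and for Matr3 and Hnrnpa1 in Q331K/Q331K against Q331K/+.

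The other comparisons of the 7 genes besides Tardbp gave no call. In heterozygotes against wild type, their edgeR log2 differences ran from -0.06 for Matr3 to 0.05 for Tia1, whose change was 3.40% with an interval of -2.25% to 9.37%. Between those lay Taf15 at -0.03, Hnrnpa2b1 at -0.02, Hnrnpa1 at -0.01, Atxn2 at 0.01 and Ewsr1 at 0.04, and all 7 had an edgeR adjusted p of 0.9996. In homozygotes against heterozygotes, Hnrnpa2b1 was at 0.05 (edgeR adjusted p = 0.560), Ewsr1 at 0.005 (0.970), Taf15 at -0.003 (0.985), Atxn2 at -0.01 (0.979) and Tia1 at -0.03 (0.814), beside the values of Matr3 and Hnrnpa1 given above. The intervals of heterozygotes against wild type reached from -10.1% at the lowest, for Matr3, to 9.37% at the highest, for Tia1. For the trend, log2 changes per allele were 0.04 for Matr3, 0.02 for Hnrnpa1, Hnrnpa2b1 and Ewsr1, 0.01 for Tia1, 0.003 for Atxn2 and -0.01 for Taf15, with edgeR adjusted p from 0.347 for Hnrnpa1 to 0.967 for Atxn2.

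Over the 8 genes, homozygotes were above wild type in 7 and below in 1, with a median log2 difference of 0.03, while 50.6% of all 16690 genes were above and their median was 0.001. In heterozygotes 4 were above wild type and 4 below, with a median of 0.003 against 0.002 for all genes. In homozygotes against heterozygotes 5 were above and 3 below, with a median of 0.03 against -0.0003. These counts include Tardbp and share libraries between comparisons. At an unadjusted p under 0.05 by edgeR there was 1 of the 8 in homozygotes against wild type, where 16.1% of all genes passed. There was 1 in heterozygotes against wild type, where 3.19% passed, and 3 in homozygotes against heterozygotes, where 11% passed.

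Variation within a genotype differed among the 8. The mean coefficient of variation ran from 2.60% for Ewsr1 and 2.69% for Hnrnpa1 to 6.04% for Matr3 and 6.14% for Atxn2, with 3.37% for Tardbp. The median was 6.90% over all genes tested and 4.38% over the 3568 genes whose mean CPM lay in the range of the 8, so that all 8 were below the first and 5 below the second, with Tia1, at 4.39%, Matr3 and Atxn2 above it. This spread sets the intervals given above: for homozygotes against wild type, the intervals of the other 7 genes lay between -6.42%, the lower bound of Taf15, and 11.3%, the upper bound of Matr3.

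Across libraries, Hnrnpa1 and Hnrnpa2b1 followed Tardbp most closely of the 7, with Pearson r of log2 CPM of 0.57 and 0.53 over 20 libraries. The values were 0.40 for Tia1, 0.33 for Matr3, 0.23 for Ewsr1, 0.02 for Taf15 and -0.28 for Atxn2. After the genotype means were removed, r was 0.64 for Tia1, 0.62 for Hnrnpa2b1, 0.40 for Taf15, 0.38 for Hnrnpa1, 0.10 for Matr3, -0.23 for Ewsr1 and -0.52 for Atxn2. All points share library depth and the makeup of the tissue piece, and genotype as well in the first set, so these are descriptions.

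The genes of the table most like Tardbp by the same r, of 12718 ranked with a mean of at least 1 CPM and no predicted-gene name, were Zfp266, a zinc finger gene, at 0.84, Cyp2j6, a cytochrome P450 gene, at 0.83, Lats1, a kinase of the Hippo pathway, at 0.83, Mvp, the major vault protein, at 0.78, and Sfrp1, a secreted modulator of Wnt signalling, at 0.78. Since r was taken over all genotypes, the choice favours genes ordered by genotype as Tardbp was. Lats1, for example, had 40.1 ± 0.970 CPM in homozygotes (SD, n = 8), 37.5 ± 1.33 CPM in heterozygotes and 35.4 ± 0.612 CPM in wild type (SD, n = 6 each). With genotype means removed, r ranged from 0.31 for Sfrp1 to 0.52 for Zfp266.

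TDP-43 is known to prefer repeats of UG, written TG in the DNA sequence, so the longest coding transcript of each gene was searched on its sense strand for TGTGTG and for TGTGTGTGTG. The longer motif, which contains the shorter one, occurred in none of the 8 transcripts, and in 9.42% of the 21901 coding genes searched, or 23.4% of the 3681 with a transcript of at least 5000 bases. The shorter motif, counted with overlaps, occurred in 6 of the 8, and in 68.0% of all coding genes. There were 6 matches in Tardbp (0.80 per kb of a transcript of 7477 bases), 4 in Tia1, 3 in Hnrnpa1, 2 in Matr3 and 1 each in Hnrnpa2b1 and Atxn2, with none in Taf15 and Ewsr1. The median over coding genes was 0.48 per kb. A match is a stretch of letters and says nothing of binding in these mice.

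Annotated targets of nonsense-mediated decay, the pathway that degrades transcripts with an early stop codon and by which several RNA-binding proteins limit their own mRNA, were frequent among the 8. At least 1 such transcript was listed for 6 of the 8, namely Tardbp (10 of 30 transcripts), Tia1 (4 of 28), Hnrnpa1 (2 of 5), Hnrnpa2b1 (2 of 13), Atxn2 (2 of 20) and Matr3 (1 of 18), and for none of the transcripts of Taf15 and Ewsr1. Over 21951 coding genes, 20.8% have at least 1. No background matched for level or for the number of listed transcripts was drawn, so the share cannot be read as a trait of the 8. Since counts are per gene, the share of these transcripts was not measured.

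Genes that act with these proteins were then examined in 5 lists, and no gene of any list was called in any comparison. All listed genes were tested. Of 9 paralogs of the 8 genes, 0 were higher and 0 lower by the edgeR test in homozygotes against wild type (0.641% and 0.923% of all genes), with a median log2 difference of 0.001. Hnrnpd, an hnRNP that binds AU-rich elements, had the smallest p of these, with 101.4 ± 4.00 CPM in homozygotes (SD, n = 8) and 96.7 ± 1.85 CPM in wild type (SD, n = 6) and a difference of 0.07 (edgeR adjusted p = 0.232). Hnrnpa3 had the largest difference, 0.17, with an interval of -0.30 to 0.63, so its libraries spread far more than those of Tardbp.

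Among 24 proteins of RNP granules, which include stress granules and transport granules, 0 were called and 8 had an unadjusted p under 0.05, or 4 above and 4 below wild type, where 16.1% of all genes had such a p. The same limit was passed by 1 of the 9 paralogs, 2 of 26 nuclear transport genes, 3 of 19 decay factors and 1 of 5 paraspeckle components. Nufip2, a stress granule component, had 38.0 ± 2.45 CPM in homozygotes (SD, n = 8) and 34.8 ± 1.75 CPM in wild type (SD, n = 6), a difference of 0.13 (edgeR adjusted p = 0.127). Ddx3x, an RNA helicase, differed by 0.11 (edgeR adjusted p = 0.215) and Stau2, a double-stranded RNA-binding protein of dendritic transport granules, by -0.07 (edgeR adjusted p = 0.141). The median of the list was -0.0007.

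Among 26 nuclear transport receptors and partners, through which RNA-binding proteins pass the nuclear pore, 0 were called. The smallest p was that of Xpot, the exportin of transfer RNA, with 85.7 ± 3.26 CPM in homozygotes (SD, n = 8) and 81.4 ± 2.23 CPM in wild type (SD, n = 6), a difference of 0.07 (edgeR adjusted p = 0.197). The list's median was 0.008. Of 19 nonsense-mediated decay factors 0 were called, with a median of -0.006. Upf1, the central helicase of that pathway, had 65.1 ± 3.84 CPM in homozygotes (SD, n = 8) and 69.3 ± 3.91 CPM in wild type (SD, n = 6), a difference of -0.09 (edgeR adjusted p = 0.248).

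Of 5 paraspeckle components, nuclear bodies built on the noncoding RNA Neat1, 0 were called, with a median of 0.01. Sfpq, a paraspeckle protein, had 160 ± 12.2 CPM in homozygotes (SD, n = 8) and 172.1 ± 6.61 CPM in wild type (SD, n = 6), a difference of -0.11 (edgeR adjusted p = 0.230). Neat1 itself had 107 ± 11.8 CPM in homozygotes and 115 ± 5.58 CPM in wild type, a difference of -0.10 (edgeR adjusted p = 0.466). In the fit with tissue scores as covariates, Neat1 was called at -0.24 (edgeR adjusted p = 0.0288), and in the fit with 3 surrogate variables the exportin Xpo1, of the nuclear transport list, was called at -0.21 (edgeR adjusted p = 0.0474).

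**Figure D5:**
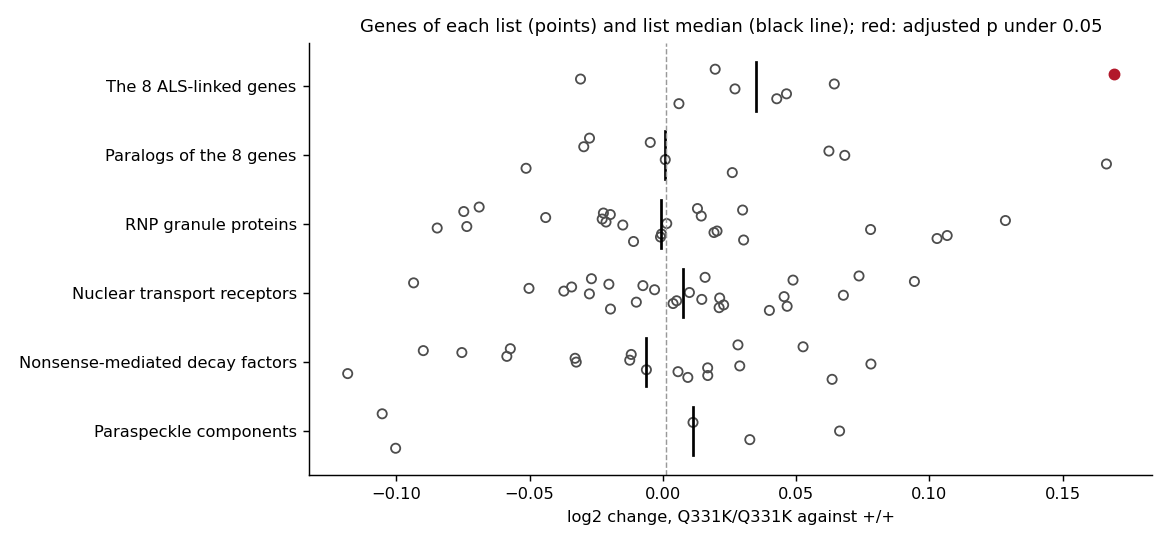
Log2 change in Q331K/Q331K against +/+ of the 8 genes and of each gene in 5 related lists (points), with the median of each list as a black line and the median of all genes as a dashed line; red marks an adjusted p under 0.05. Tardbp at 0.17 is the only red point, and list medians lie between -0.006 and 0.01 for the 5 related lists and at 0.03 for the 8 genes.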

How the data were processed

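Mouse frontal cortex RNA was sequenced in 20 libraries. The deposited values are raw whole-number counts per gene in 1 table, not normalised. The submitters' processing notes name HISAT2 2.0.5, Trim Galore 0.4.3 and the build GRCm38; how reads were counted, and with which annotation and strand setting, is not given in the sources used here. The 56 rows with no gene identifier held at most 0.0835% of a library's counts and stayed in, and 124 rows that share a name were kept apart. Each of the 58 pairs of libraries within a genotype differed beyond sampling noise (chi-square per degree of freedom at least 13.0).

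All 20 libraries entered 1 fit by genotype in edgeR 4.0.16 (R 4.3.3; TMM scaling, filterByExpr, robust dispersions, quasi-likelihood test). A gene was called where its p, adjusted over 16690 genes (Benjamini-Hochberg), was under 0.05. Exact permutation tests of Tardbp log2 CPM (prior count 2) were two-sided. Simulated counts, in which 200 genes were changed, served to test the code. GENCODE M21, to which 96.5% of 25909 identifiers matched, gave lengths, overlaps and transcripts, whose sequence was searched for motifs. As alternatives, the table was also fitted by DESeq2 1.42.0, with DESeq2 size factors in edgeR, without a filter or with 1 CPM in 6 libraries, by limma 3.58.1 voom, with 3 surrogate variables (sva 3.50.0), tissue scores or the replicate number in the model, and without libraries of high ependymal score, the third genotype or each library in turn. Named genes were the 8, the 5 most like Tardbp and, in each list, those of smallest p; Hnrnpa3, Ddx3x, Stau2, Neat1 and Xpo1 were named after their values were seen. The 8 genes and all lists were chosen with earlier results of these data known.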

Additional observations from a re-analysis of the deposited data

Results flagged for a closer look

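Of 24 groups examined, 3 genotypes for each of the 8 genes, 1 held a library far from the others: Tardbp in heterozygous replicate 4, at 215.1 CPM, while the other 5 heterozygous libraries had 229.9 to 235.1 CPM. The gap took 0.738 of the group's range, against a critical value of 0.625 for 6 samples, which chance exceeds in about 1 in 20 groups. This library was also the deepest, with 111440766 counts. Without it, heterozygotes had a log2 difference of 0.10 from wild type (edgeR adjusted p = 0.924), and homozygotes one of 0.08 from heterozygotes (edgeR adjusted p = 0.249).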

How the results depend on the processing

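Tardbp in homozygotes against wild type kept its direction under all 31 alternatives, and with each library left out its log2 change ran from 0.153 to 0.179 (edgeR adjusted p from 0.00133 to 0.0182). The call was lost only with tissue scores as covariates, at 0.160 (edgeR adjusted p = 0.0527), which left 0 of the 8 genes called there and 0 for the trend. With 3 surrogate variables the call was kept only narrowly, at 0.167 (edgeR adjusted p = 0.0481). The trend also had 0 without libraries of an ependymal score over 0, a fit with 3 homozygous libraries. Called list genes numbered 1 for paraspeckle components with tissue scores and 1 for nuclear transport with 3 surrogate variables. The cause was not tested. Over all genes, homozygotes against wild type gave 634 calls with DESeq2 and 102 with surrogate variables, against 261.

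Signs turned only for genes that were not called. Homozygotes against heterozygotes gave Atxn2 at 0.0222 with voom, 0.00639 with tissue scores, 0.0514 with surrogate variables, 0.0518 without scores over 0.5 and 0.125 without scores over 0, and Tia1 at 0.0139 with tissue scores and 0.00755 with surrogate variables. Against wild type, Hnrnpa2b1 in homozygotes was at -0.0252 and -0.0114 with those 2 fits and Atxn2 in heterozygotes at -0.0206 without scores over 0. Leaving out each library gave ranges of -0.0192 to 0.0235, -0.00803 to 0.0391 and -0.0331 to 0.0144 for Atxn2 in homozygotes against wild type, heterozygotes against wild type and homozygotes against heterozygotes, -0.0209 to 0.00152 for Hnrnpa1 in heterozygotes against wild type, -0.0168 to 0.00742 for Taf15 and -0.00236 to 0.0137 for Ewsr1 in homozygotes against heterozygotes, and -0.00243 to 0.0335 for Tia1 in homozygotes against wild type.

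No pairing by equal replicate number was seen: 1 of 18 pairs had a correlation of deviations over 0.1 (range -0.104 to 0.139), and 2 of 20 libraries correlated best with their own number. The labels do not say what the number stands for, and low correlations cannot show that nothing was shared. With the replicate number as a block, Tardbp in homozygotes against wild type was at 0.184 (edgeR adjusted p = 0.00388), and calls over all genes numbered 387. Signs turned for Atxn2 in homozygotes against wild type (-0.0475) and, in homozygotes against heterozygotes, for Taf15 (0.0169) and Ewsr1 (-0.00206). Only homozygotes have replicates 7 and 8, so in this fit these 2 libraries add nothing to the genotype differences. They had the highest Atxn2 levels of the homozygotes, at 144.97 and 140.6 CPM. The values of this fit therefore mix the block with the loss of these libraries.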
